A study of Mus musculus with 4 samples.

Results

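Male germ cells that had just entered meiosis were picked from a mouse testis single-cell data set by their transcripts, and 187 of 29968 cells met the rule for leptotene to zygotene spermatocytes. Leptotene and zygotene are the opening stages of meiotic prophase. In leptotene the enzyme SPO11 cuts the DNA at many places while protein axes form along the chromosomes, and in zygotene the cut ends, coated by the recombinase DMC1, search for the matching chromosome and the synaptonemal complex begins to zip the pairs together. The X and Y chromosomes stay largely unpaired and are silenced as cells pass into pachytene, the next stage. In adult testis these cells are scarce beside the spermatids that they later give rise to.

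The cells came from 4 samples of testicular cell suspensions of C57BL/6 mice at postnatal day 63, 2 labelled Phf7 f/f and 2 labelled Phf7 tKO. The Phf7 f/f genotype carries the floxed allele without the deletion, and Phf7 tKO is the Stra8-Cre:Phf7 f/f animal, in which Stra8-driven Cre acts from premeiotic germ cells on. Testes were dissociated with enzymes, red blood cells were lysed, and the 3' ends of polyadenylated transcripts were counted as unique molecular identifiers (UMI). Whether each sample is a separate animal is not stated in the labels. The 4 libraries are told apart by the suffix of each cell barcode, and the labels connect no suffix with a sample or genotype. The genotypes were therefore not compared, and the libraries were not treated as replicates. Every value below is a description with no test, and values are for the pool unless a library is named. Intervals are exact 95% intervals and cover counting error only. In these sums a smaller number of cells expressing a gene and less RNA per cell cannot be told apart.

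A cell was a member when it had at least 500 genes and at most 10% mitochondrial UMI, and at least 3 UMI over Prdm9, Gm960, Meiob, Zcwpw1 and Scml2 from at least 2 of these 5 genes. That sum had to exceed the sum of Pou5f2, Piwil1 and Ccna1, genes of later spermatocytes. At most 2 of the 9 spermatogonial genes Gfra1, Id4, Zbtb16, Dmrt1, Uchl1, Sohlh1, Crabp1, Dnmt3b and Stra8 could be detected, and the transition proteins and protamines Tnp1, Tnp2, Prm1 and Prm2 had to hold under 4% of UMI. These values chose the members, so none of these genes counts below as a finding. PRDM9 marks the sites where breaks are made, ZCWPW1 reads its histone marks, and MEIOB binds single-stranded DNA during repair. Prdm9 was detected in 72 members, Meiob in 124, Zcwpw1 in 155, Scml2 in 106 and Gm960 in 41, and a member had a median of 5 UMI over the 5 genes.

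The rule caught 0.624% of the kept cells (exact Clopper-Pearson interval 0.538 to 0.720%), with 47, 37, 56 and 47 members in libraries 1 to 4. As a share of each library's kept cells this was 0.614%, 0.532%, 0.756% and 0.592%. The members held 814063 UMI, a median of 3575 UMI (1619 to 27256) and 2017 genes per cell, out of 190744950 UMI in the whole matrix. Of the barcode sequences, 497 of 31772 occurred with more than 1 suffix. A barcode of this kind was carried by 8 members, and 0 were shared by 2 members. At the edges of the rule values differed less at the UMI limit than at the spermatogonial limit. The 55 members at exactly 3 UMI over the 5 genes had 3612 CPM (UMI of a gene per 1e6 UMI of the class) of Tex101 and 2601 CPM of Sycp3, and the 57 cells just outside, at 2 UMI, had 2155 and 2136 CPM. The 24 members with 2 spermatogonial genes had 2122 CPM of Sycp3, against 654 CPM in the 25 cells with 3.

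Phf7 (chr14:31237689-31251317, minus strand, GENCODE on GRCm38), the gene targeted in this study, encodes a PHD finger protein that binds histones in male germ cells. In the members its level was 118.7, 282.7, 380.5 and 154.6 CPM in libraries 1 to 4, or 245.7 CPM in the pool (212.8 to 282.2). Libraries 2 and 3 were thus high and libraries 1 and 4 low, and the intervals of the 2 low ones (76.1 to 176.7 and 102.7 to 223.4) overlapped each other. The ratio of the highest to the lowest library was 3.20, the largest among 1612 genes with at least 20 UMI in each library, whose median ratio was 1.41. No genotype was read from this order.

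The members were set beside the cells before and after them, chosen by the same genes. The spermatogonia gate held 431 cells (median 6147 UMI) with at least 3 of the 9 spermatogonial genes and under 3 UMI of the later genes, and the late spermatocyte gate held 1232 cells (median 17506 UMI) with at least 3 UMI over Pou5f2, Piwil1 and Ccna1 from at least 2 of them. Of these reference cells, 126 of the spermatogonia gate and 63 of the late gate also had at least 3 UMI over the 5 genes of the rule, so the boundaries are not absolute. Genes with at least 50 UMI over both classes were compared, and a call needed a 2-fold difference between the pools and the same direction in each of the 4 libraries. The genes of the rule were left out. The members were higher than the spermatogonia gate for 867 of 8112 genes (10.7%) and lower for 1399 (17.2%). They were higher than the late gate for 3040 of 11625 genes (26.2%) and lower for 2552 (22.0%). Against both, 413 of 7502 genes were higher (5.51%) and 158 lower (2.11%). Since the classes were cut on genes of the same cells, these shares serve only as the background for the lists that follow. When both references were limited to cells with UMI between the 10th and 90th percentile of the members, 235 spermatogonia and 319 late spermatocytes remained. Then 862 genes were lower than in spermatogonia and 1731 higher than in late spermatocytes. Smaller references leave fewer genes at 50 UMI, so these counts fall partly by construction and are not set beside the shares above.

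Markers went with the label for most cells and against it for some. The synaptonemal gene Sycp3 had a UMI in 99.5% of members, or in 88.8% after every cell was thinned to 1000 UMI. In macrophages (302 cells, median 2469 UMI), which do not use it, the share was 10.3%, and 4.3% after thinning. It was 12.6% in Sertoli-gated cells and 6.4% in Leydig cells, and 8.5% and 1.9% after thinning. Thinning left out 0 members, 20 macrophages, 50 Leydig cells and 503 Sertoli-gated cells with under 1000 UMI. Droplets hold free RNA of the abundant spermatid and pachytene transcripts, and Prm1 had a UMI in 99.5% of members and 99.3% of macrophages. The transition protein and protamine genes together held 0.710% of the members' UMI. Summed over each marker list, Leydig cell genes stood at 8.60 CPM in the members with Hsd3b1 and Insl3 at 0, and myoid genes at 1.23 CPM with 4 of 5 genes at 0. Sertoli cell genes reached 93.4 CPM with Sox9, Rhox5, Amh and Fshr at 0. Macrophage genes lay at 20.9 CPM, of which library 4 had 82.8 and library 1 had 0, with Csf1r and Adgre1 at 0. Their part in the results was not tested. The 10 dissociation stress genes summed to 50.4 CPM.

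The X chromosome gave a reading the rule had not used directly, apart from Scml2, an X-linked gene. X-linked genes held 1.61% of the members' UMI, 1.82% in the spermatogonia gate and 0.300% in the late gate. By library the members had 1.75%, 1.51%, 1.41% and 1.85%, all far nearer to the spermatogonia. Single cells fell into a main group and a low group: the median member had 2.09%, and 30 of 187 members were under 1% (16.0%, 11.1 to 22.1%), a limit set after the values were seen. The same was true of 7 of 431 spermatogonia and 1109 of 1232 late spermatocytes. These 30 cells came from all libraries, with 4, 10, 11 and 5 in libraries 1 to 4. Their median was 7974.5 UMI, against 3427 in the other 157 members.

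The 30 members with a low X-linked share carried transcripts of later cells beside the meiotic ones. They had 641 CPM of the spermatocyte proteasome subunit gene Psma8, against 70.1 in the rest. Dmc1 was at 91.6 against 320 CPM. In X-linked share and in these 2 genes they went against the label, toward the late gate. Tex101 and Ly6k, markers of the label that the rule does not use, went the other way. Tex101 was at 4517 against 3427 CPM, with 256 CPM in the late gate. Ly6k was at 2603 against 1363 CPM, with 202 CPM in the late gate. The 30 cells are kept here under the rule. Among genes the rule used, and so only as a description, Piwil1, of the pachytene stage, was at 161 against 8.55 CPM, and Stra8, the retinoic acid target that starts meiosis, at 4.36 against 571 CPM. Sycp3, outside the rule, differed much less, at 3370 against 2557 CPM, and also lay further from the late gate (288 CPM). Without these 30 cells 509 genes were higher than in both neighbours, and 338 of them were among the 413.

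**Figure D1:**
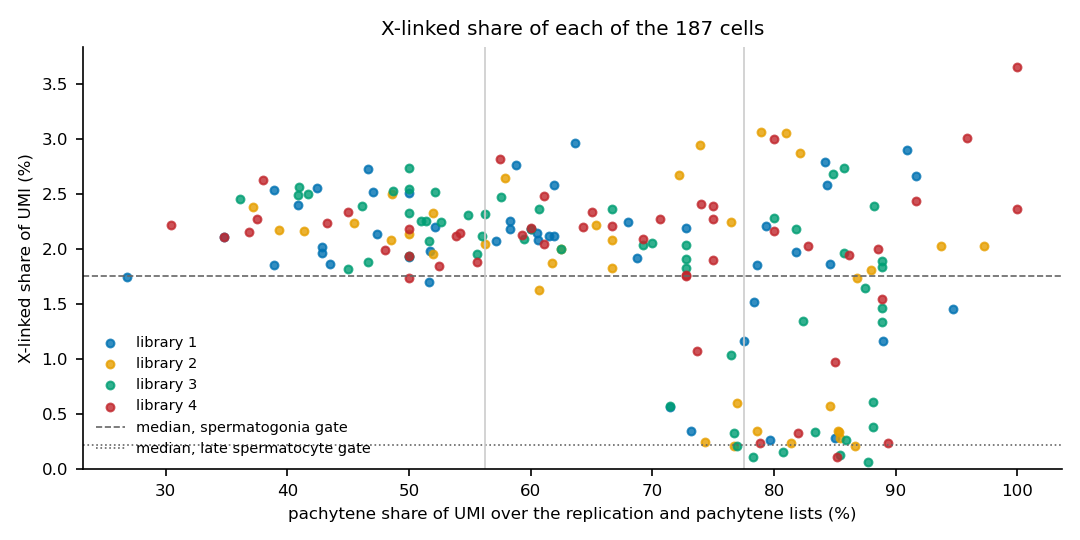
X-linked share of UMI (percent, vertical axis) of each of the 187 members, against the pachytene share of the UMI over the replication and pachytene gene lists (percent, horizontal axis). Points are cells coloured by library, grey lines mark the boundaries between the 3 parts of the order described below, and the dashed and dotted lines give the median cell of the spermatogonia gate (1.76%) and the late gate (0.220%). Most cells lie near 2%, and the 30 cells under 1% all lie on the right side of the plot.

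Genes of the synaptonemal complex were high nearly as a whole. Of 10 members compared, 8 were higher than in spermatogonia (all genes 10.7%) and 9 higher than in late spermatocytes (26.2%), and 8 were higher than in both (5.51%). The median log2 ratio was 1.95 to spermatogonia and 3.55 to late spermatocytes, beside -0.01 and 0.16 over all genes compared. Sycp3 (chr10:88459569-88473236, plus strand, GENCODE on GRCm38), which builds the lateral element of the axis, had 2672, 2907, 2913 and 2617 CPM in libraries 1 to 4. In spermatogonia the libraries lay between 221 and 298 CPM and in late spermatocytes between 277 and 310, so no library of either overlapped the members. The log2 ratios were 3.46 (3.34 to 3.59) and 3.28 (3.21 to 3.34). Sycp1, the transverse filament that spans the gap between paired axes, had 2597, 2593, 2697 and 2556 CPM, against 506 and 194 CPM in the pooled neighbours. Sycp2, the partner of SYCP3 in the lateral element, stood at 625 CPM, against 54.7 and 131 CPM.

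The central element genes were less alike. Syce2 stood at 1130 CPM, against 533 in spermatogonia and 79.2 in late spermatocytes, and Tex12, whose product pairs with SYCE2, at 174, 62.0 and 10.7 CPM. Syce1 was not called either way, with 398, 217 and 785 CPM in members, spermatogonia and late spermatocytes. Trip13, an ATPase that strips HORMA domain proteins from synapsed axes, was lower than in spermatogonia, with 40.5 against 93.7 CPM, and above the 3.98 CPM of late spermatocytes. 4930447C04Rik, the gene of the synaptonemal complex protein SIX6OS1, had 451, 121 and 11.3 CPM.

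Break formation showed a split within its list. Of 10 genes compared, 5 were higher and 2 lower than in spermatogonia (all genes 10.7% and 17.2%). Against late spermatocytes 6 were higher and 1 lower (all genes 26.2% and 22.0%), and 4 were higher than in both (5.51%). Spo11, the nuclease itself, had 114, 104, 134 and 149 CPM in libraries 1 to 4, against 5.83 CPM in spermatogonia, a log2 ratio of 4.44 (3.67 to 5.30). In late spermatocytes it was at 109 CPM, and the log2 ratio of 0.22 (-0.08 to 0.50) passed no call. Hormad1, which coats unsynapsed axes and promotes breaks, had 376, 529, 571 and 431 CPM, against 50.7 and 77.1 CPM in the neighbours. Ankrd31, Mei1 and Ccdc36, whose products act with SPO11's partners on the axis, were also higher than in both. Rec114, of the same machinery, was at 29.5 CPM against 93.3 CPM in spermatogonia, and Ehmt2, a histone H3 methyltransferase, was lower than in both with 23.3, 98.8 and 53.4 CPM.

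Promoters of 6 genes are shown because they belong to the axis, the break and repair machinery and the cell surface, groups that were high together, and because they differ in whether they hold 2 letter motifs. As background, E2F6 and MGA belong to a Polycomb-type complex that represses germline genes in other cells, and they bind E2F and E-box letters. The motifs searched on both strands were CACGTG, which reads the same on either strand, and GGCGGGAA, and the 2 do not overlap in letters at any printed place. Each run is 300 bases, from 250 before to 50 after the start of transcription as RefSeq places it on GRCm38.p6, written along the gene's strand in lower case with any motif match in capitals.
Sycp3, chr10:88459337-88459636, plus strand: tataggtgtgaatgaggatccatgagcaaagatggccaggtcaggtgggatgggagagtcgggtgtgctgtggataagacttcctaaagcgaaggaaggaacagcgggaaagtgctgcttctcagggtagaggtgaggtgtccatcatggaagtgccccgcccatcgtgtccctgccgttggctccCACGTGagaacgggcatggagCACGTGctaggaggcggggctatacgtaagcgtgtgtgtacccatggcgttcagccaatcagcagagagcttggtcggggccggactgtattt
Hormad1, chr3:95559427-95559726, plus strand: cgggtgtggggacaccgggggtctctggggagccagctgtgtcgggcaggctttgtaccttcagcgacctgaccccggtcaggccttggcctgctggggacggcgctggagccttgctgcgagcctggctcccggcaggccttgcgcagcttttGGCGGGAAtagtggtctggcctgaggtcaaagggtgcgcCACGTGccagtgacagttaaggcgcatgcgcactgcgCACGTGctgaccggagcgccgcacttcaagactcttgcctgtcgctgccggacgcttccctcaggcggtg
Sycp1, chr3:102936051-102936350, minus strand: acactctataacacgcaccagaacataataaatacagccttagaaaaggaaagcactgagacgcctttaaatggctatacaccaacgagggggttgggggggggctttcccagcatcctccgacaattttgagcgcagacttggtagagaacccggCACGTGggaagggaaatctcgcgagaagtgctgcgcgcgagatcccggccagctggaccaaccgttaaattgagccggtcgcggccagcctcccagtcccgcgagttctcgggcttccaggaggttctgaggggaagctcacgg
Rad51ap2, chr12:11455805-11456104, plus strand: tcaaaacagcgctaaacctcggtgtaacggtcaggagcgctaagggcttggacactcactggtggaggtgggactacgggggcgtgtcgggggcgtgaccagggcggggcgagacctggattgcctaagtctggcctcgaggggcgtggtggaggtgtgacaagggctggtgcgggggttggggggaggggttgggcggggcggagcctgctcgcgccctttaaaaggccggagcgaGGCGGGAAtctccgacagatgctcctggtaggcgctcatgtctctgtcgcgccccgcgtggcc
Dmc1, chr15:79605060-79605359, minus strand: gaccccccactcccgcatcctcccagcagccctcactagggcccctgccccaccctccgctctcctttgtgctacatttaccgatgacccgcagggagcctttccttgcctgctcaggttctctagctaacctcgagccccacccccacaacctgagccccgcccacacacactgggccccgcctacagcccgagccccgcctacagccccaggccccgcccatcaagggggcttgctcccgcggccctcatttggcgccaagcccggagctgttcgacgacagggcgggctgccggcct
Tex101, chr7:24672001-24672300, minus strand: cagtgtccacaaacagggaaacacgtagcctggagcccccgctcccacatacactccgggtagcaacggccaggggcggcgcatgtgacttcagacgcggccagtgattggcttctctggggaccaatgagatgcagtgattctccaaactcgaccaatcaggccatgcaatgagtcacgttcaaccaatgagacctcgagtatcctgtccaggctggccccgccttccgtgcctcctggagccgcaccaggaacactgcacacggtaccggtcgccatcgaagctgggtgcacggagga
Sycp3 held 2 CACGTG, Hormad1 held 2 CACGTG and 1 GGCGGGAA, Sycp1 held 1 CACGTG, Rad51ap2 held 1 GGCGGGAA, and the windows of Dmc1 and Tex101 held neither set of letters. In GENCODE the Tex101 gene spans chr7:24668007-24676675, so the RefSeq start lies inside the longest model. Meiob, Ly6k, Gml and Gml2 are named only.

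Over the whole list the share of promoters with a motif lay close to the background. Of the 413 genes higher than in both neighbours, 336 had a RefSeq promoter of this length and 19.05% of these (14.99 to 23.66%) held either motif. The share was 15.9% among the 5853 promoters of all genes compared and 9.26% among all 27025 promoters. For genes lower than in both it was 17.8% of 129 (11.7 to 25.5%). CACGTG alone was in 13.7%, 11.7% and 7.24% of the promoters of the higher genes, the compared genes and all genes, and GGCGGGAA in 6.85%, 4.72% and 2.24%. A median promoter held 23 CpG among the higher genes and 22 among the compared genes, against 7 over all promoters.

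**Figure D2:**
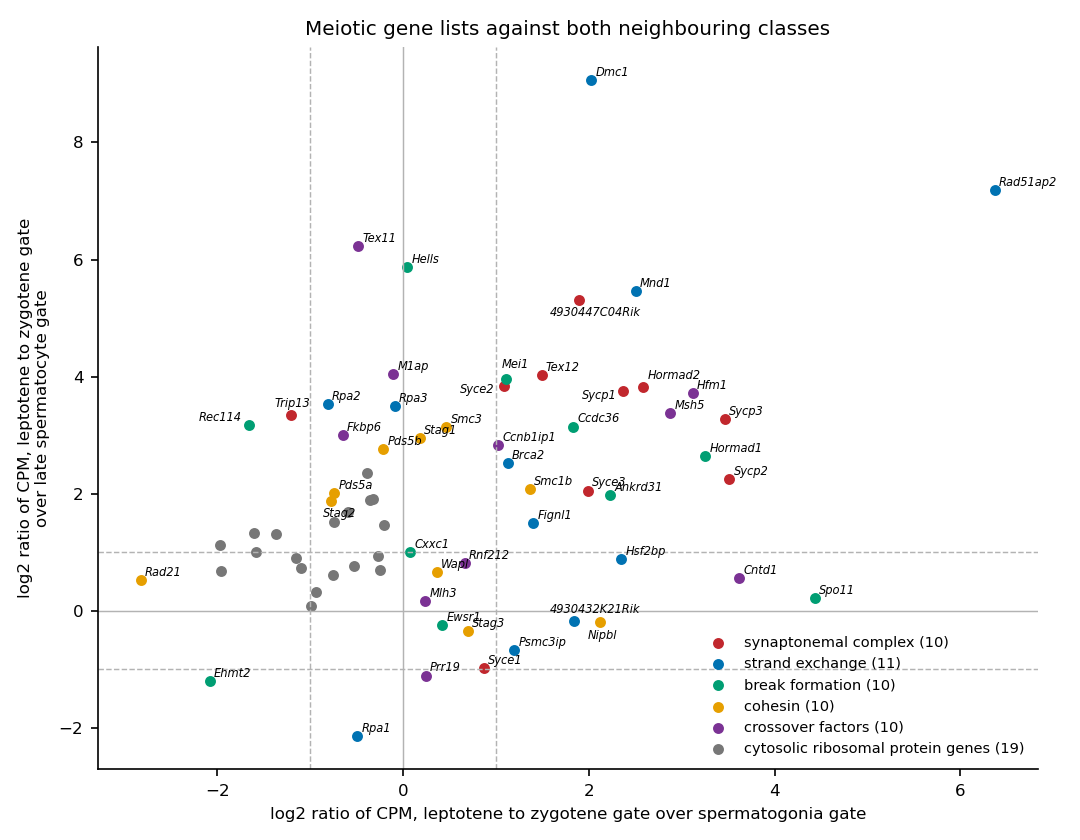
Log2 ratio of CPM of the members to the spermatogonia gate (horizontal axis) and to the late spermatocyte gate (vertical axis) for compared genes of 6 lists, with the number drawn in brackets. Dashed lines mark a 2-fold difference, and points are single genes of the 4 libraries pooled. Synaptonemal genes (red) lie in the upper right except Syce1 and Trip13, and ribosomal protein genes (grey) lie left of 0.

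Strand exchange genes were mostly higher than in either neighbour taken alone, but fewer were higher than in both. Of 12 genes compared with spermatogonia 8 were higher and 0 lower (all genes 10.7% and 17.2%). Of 14 compared with late spermatocytes 9 were higher and 1 lower (all genes 26.2% and 22.0%), and 5 of 12 were higher than in both (5.51%). Dmc1 and Rad51ap2 reached the minimum of 50 UMI against late spermatocytes mainly through the members. They had 208 and 123 UMI in the members and 16 and 35 in the late gate. The counts of higher genes in this list are thus partly set by the filter. Dmc1 (chr15:79561497-79605109, minus strand), the meiosis-specific recombinase, had 237, 234, 242 and 315 CPM in libraries 1 to 4. Late spermatocytes had 0.475 CPM in the pool and at most 0.905 in a library, a log2 ratio of 9.07 (8.34 to 9.90), and spermatogonia had 62.7 CPM (log2 ratio 2.03). The members, 0.624% of cells, held 19.12% of all Dmc1 UMI, and the spermatogonia gate, 1.44% of cells, held 15.8%. After thinning, 28.9% of members and 0.3% of Sertoli-gated cells (1577 cells, median 1232 UMI) had a Dmc1 UMI, from 59.9% and 0.9% unthinned.

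Rad51ap2 was nearly absent from both neighbours. It had 188, 92.2, 145 and 171 CPM in libraries 1 to 4, 1.82 CPM in spermatogonia (2 libraries at 0) and 1.04 CPM in late spermatocytes. The log2 ratios were 6.37 (5.11 to 8.02) and 7.18 (6.63 to 7.77), and the members held 29.6% of all its UMI. Mnd1, which with PSMC3IP helps the recombinases invade, had 94.0, 141, 183 and 55.2 CPM, against 21.9 and 2.82 CPM in the neighbours. Its partner Psmc3ip followed another course, with 324 CPM, 141 CPM in spermatogonia and 514 CPM in late spermatocytes. Rpa1 and Rpa2, subunits of one single-strand binding complex, went apart: relative to late spermatocytes Rpa2 was higher (173 against 15.03 CPM) and Rpa1 lower (46.7 against 206 CPM).

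Crossover factors act later, on the subset of sites that become exchanges. Of 10 compared with spermatogonia 4 were higher and 0 lower (all genes 10.7% and 17.2%). Of 12 compared with late spermatocytes 8 were higher and 1 lower (all genes 26.2% and 22.0%), and 3 of 10 were higher than in both (5.51%). Hfm1, a helicase, had 82.3, 9.48 and 6.24 CPM in members, spermatogonia and late spermatocytes. Msh5, which clamps recombination intermediates together with MSH4, had 118, 16.0 and 11.3 CPM. Cntd1, a late crossover regulator, was high in both spermatocyte classes, with 179 and 122 CPM against 14.6 in spermatogonia. The X-linked gene Tex11 and the meiotic gene M1ap were at the level of spermatogonia, 73.7 against 103 CPM and 156 against 168 CPM, and were higher than in late spermatocytes by log2 ratios of 6.23 and 4.05.

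Cohesin is the ring that holds sister chromatids. Of 11 genes compared with spermatogonia 2 were higher and 2 lower, close to the shares of all genes (10.7% and 17.2%). Of 10 compared with late spermatocytes 6 were higher and 0 lower (all genes 26.2% and 22.0%). Smc1b, the meiotic core subunit, had 1494, 1039, 1145 and 1397 CPM in libraries 1 to 4, and no library of spermatogonia (445 to 530) or late spermatocytes (274 to 335) reached these. Its mitotic counterpart Smc1a, an X-linked gene, was at 19.7 CPM against 51.0 CPM in spermatogonia. The mitotic kleisin Rad21 was at 13.5 against 95.9 CPM. The meiotic kleisin Rec8 rested on 11 UMI and was lower than in spermatogonia, at 13.5 against 27.3 CPM. Nipbl, the cohesin loader, had 373, 85.7 and 426 CPM.

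Telomere attachment genes tie chromosome ends to the nuclear envelope. Of 7 genes compared, 4 were higher than in spermatogonia (all genes 10.7%). Against late spermatocytes 1 was higher and 1 lower (all genes 26.2% and 22.0%). Spdya, the activator of CDK2 at telomeres, had 289, 26.6 and 354 CPM, and Ccdc155, which links telomeres to the cytoskeleton, had 84.8, 19.7 and 99.6 CPM. Sun1, the inner nuclear membrane anchor, was higher than in both, with 106, 40.1 and 25.6 CPM. Of 11 genes of silencing and damage signalling on unsynapsed chromatin, 3 were higher and 0 lower than in spermatogonia (all genes 10.7% and 17.2%). Against late spermatocytes 9 were higher and 0 lower (all genes 26.2% and 22.0%). H2afx, whose histone is phosphorylated around breaks and over the XY body, had 218, 399, 485 and 398 CPM, against 66.7 and 103 CPM. Atr, the kinase that spreads this mark, and Mdc1, the adaptor that reads it, were the other two higher than in both. H2afx was at 1003 CPM in the 30 cells with a low X-linked share and 139 CPM in the rest, and without those 30 cells its level was less than 2-fold above late spermatocytes, so its call against them ended.

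Genes of meiotic entry and its RNA regulators had no common course. Of 11 genes compared, 3 were higher and 1 lower than in spermatogonia (all genes 10.7% and 17.2%). Against late spermatocytes 7 were higher and 1 lower (all genes 26.2% and 22.0%). Meioc and Ythdc2, whose proteins act together on mRNA to keep cells out of mitosis, and Rbm46, an RNA-binding partner of theirs, were the 3 higher than in both. Dazl, a germ cell RNA-binding protein, had 2033 CPM, 1145 in spermatogonia and 30.9 in late spermatocytes. Dmrtb1, a factor at the switch from mitosis to meiosis, was at 237 CPM, close to the 272 CPM of spermatogonia and below the 1642 CPM of late spermatocytes.

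Genes of dividing cells were lower than in spermatogonia or level with them, with 1 exception among the lists. Of 20 replication genes compared with spermatogonia 0 were higher and 8 lower (all genes 17.2%), with a median log2 ratio of -0.80. Cdt1, which licenses origins, was at 1.23 against 67.8 CPM, a value of 1 UMI, and Tyms, for thymidylate synthesis, at 8.60 against 87.9 CPM. Mcm5, a subunit of the replicative helicase, was still at 136 CPM, level with the 131 CPM of spermatogonia and above the 3.98 CPM of late spermatocytes. Of 14 cell cycle genes 1 was higher and 7 lower than in spermatogonia (all genes 10.7% and 17.2%). The G1 cyclin gene Ccnd1 stood at 4.91 against 157 CPM and Ccnd2, with 1 UMI, at 1.23 against 78.0 CPM. Cdk1 was the 1 higher, with 224 against 92.2 CPM. Ccnb3, a cyclin of early prophase, was left out of the calls by its low UMI, but of its 66 UMI in the kept cells the members held 51.5%.

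Of 15 pachytene genes compared with spermatogonia 7 were higher and 0 lower (all genes 10.7% and 17.2%). Of 16 compared with late spermatocytes 1 was higher and 10 lower (all genes 26.2% and 22.0%). The 1 higher gene was Taf7l, an X-linked gene at 601, 434 and 9.68 CPM. Mybl1, the regulator of the pachytene transcription programme, had 71.2 CPM, 1.82 in spermatogonia and 36.6 in late spermatocytes. Genes of this list are also among the free RNA: Ldhc, the testis lactate dehydrogenase, had a UMI in 99.5% of both members and Sertoli-gated cells. The 15 genes of DNA methylation and transposon control had 0 higher and 4 lower than in spermatogonia (all genes 10.7% and 17.2%). These 4 were the methyltransferase genes Dnmt1 and Dnmt3a, Tex19.1, and Henmt1, the piRNA methylase, which was lower than in both with 3.69, 24.4 and 57.1 CPM.

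Ribosomal protein genes gave a graded pattern. Of 20 compared, 0 were higher and 7 lower than in spermatogonia (all genes 10.7% and 17.2%). Against late spermatocytes 11 were higher and 0 lower (all genes 26.2% and 22.0%). The median log2 ratios were -0.75 and 1.07. Rps2 had 930, 805, 709 and 712 CPM in libraries 1 to 4, all below the 2881 to 3400 CPM of spermatogonia and above the 317 to 422 CPM of late spermatocytes. Rps19 differed little from spermatogonia (log2 ratio -0.39) and was higher than in late spermatocytes by 2.36.

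The genes higher than in both neighbours also included genes outside the meiotic lists. Genes higher than in both with at least 200 UMI in the members were ranked by the smaller of the 2 ratios. The 15 leading were H2-D1, Gml2, Sycp3, Gml, H2-K1, Inca1, Ly6k, Tex101, Sec11c, Iqcb1, Dnajc3, Hormad1, Emc7, Bod1l and Sycp1. Genes under this limit were not ranked, such as Rad51ap2 with 123 UMI in the members and log2 ratios of 6.37 and 7.18. Of the 15 ranked genes, 3 encode proteins of the chromosome axis or the synaptonemal complex. The lists used below for endoplasmic reticulum entry and folding, GPI anchors, MHC class I and Ly6 domain genes were written after these names had been seen, so their counts describe and support nothing.

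Tex101 and Ly6k, 2 markers of these cells that the rule does not use, encode GPI-anchored Ly6 domain proteins that work as a pair on the germ cell surface and are needed for sperm to pass into the oviduct. Tex101 had 3092, 4345, 3737 and 3898 CPM in libraries 1 to 4, against 511 and 256 CPM in the neighbours. The highest library of either neighbour had 545 and 350 CPM, so the classes did not overlap. Ly6k had 1484, 1924, 1757 and 1712 CPM, against 148 and 202 CPM. After thinning, 95.2% of members and 0.4% of macrophages had a Tex101 UMI, from 100% and 2.0% unthinned. In Sertoli-gated cells the share was 3.6% (5.9% unthinned) and in Leydig cells 0.2% (2.8%). Ly6k stood at 131 CPM in the Leydig gate, near the 148 CPM of spermatogonia. After thinning, 73.3% of members and 5.5% of Leydig cells had a Ly6k UMI, from 98.9% and 11.1% unthinned.

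Ly6k lies beside Gml and Gml2, related genes, within 38.0 kb on chromosome 15 (chr15:74796874-74834871, GRCm38). All 3 were higher than in both neighbours. Gml had 307, 854, 739 and 486 CPM in libraries 1 to 4, 5.10 CPM in spermatogonia and 66.2 CPM in late spermatocytes, with log2 ratios of 6.87 (6.11 to 7.75) and 3.18 (3.03 to 3.32). Gml2 had 218, 535, 541 and 271 CPM, against 9.12 and 36.8 CPM. For both genes library 1 was the lowest, and both were far higher in the 30 cells with a low X-linked share, at 1626 against 195 CPM for Gml and 1007 against 161 CPM for Gml2. Among the 17 genes of this span and the 100 kb on either side, the other members of the family were near silence: Psca had 2 UMI in the members, Lynx1 had 1, and Slurp1, Lypd2 and Ly6d had 0. Ly6k overlaps the antisense gene Gm17189, and the end of Gml2 overlaps Cyp11b1. Both Gm17189 and Cyp11b1 had 0 UMI in the members.

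Endoplasmic reticulum genes were in part higher. Of 40 compared with spermatogonia 14 were higher and 1 lower (all genes 10.7% and 17.2%). Against late spermatocytes 24 were higher and 1 lower (all genes 26.2% and 22.0%), and 11 were higher than in both (5.51%). Hspa5, the chaperone BiP, had 2409, 2397, 2521 and 2749 CPM in libraries 1 to 4, and 390.5 and 533 CPM in the neighbours. Calr, a calcium-binding chaperone of glycoproteins, had 2395, 2833, 2529 and 2440 CPM, against 553 and 541 CPM. Dnajc3, a co-chaperone of BiP, stood at 634 CPM, against 92.2 and 76.4 CPM, and Emc7, of the membrane protein insertase, at 961, against 124 and 169 CPM. Sdf2l1, Spcs1 and Dad1 were higher than in spermatogonia only, with late spermatocytes at 250, 937 and 763 CPM. Pdia3, a disulfide isomerase, was at 252 CPM, level with spermatogonia (log2 ratio 0.01).

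GPI anchor synthesis, which makes the tether of TEX101 and LY6K, had 5 of 19 genes higher and 0 lower than in spermatogonia (all genes 10.7% and 17.2%). Against late spermatocytes 13 of 25 were higher and 2 lower (all genes 26.2% and 22.0%). The same 5 were higher than in both: Pigp, Pigf, Pigk, Gpaa1 and Dpm1. Pigp, a subunit of the enzyme that begins the anchor, had 831, 596, 604 and 734 CPM, against 167 and 58.2 CPM. Pigk and Gpaa1, of the transamidase that joins anchor to protein, had 195 and 130 CPM, against 63.8 and 52.1 CPM in spermatogonia.

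The MHC class I genes H2-D1 and H2-K1, which present peptides to T cells, were the first and the fifth of the leading genes. H2-D1 had 287, 234, 272 and 293 CPM in libraries 1 to 4, 14.6 CPM in spermatogonia and 1.25 CPM in late spermatocytes, log2 ratios of 4.22 (3.73 to 4.75) and 7.77 (7.29 to 8.28). H2-K1 had 485, 455, 530 and 607 CPM, against 58.7 and 58.8 CPM. The 2 genes are near copies of each other, so how reads were divided between them is uncertain. B2m, the light chain that both need, was at 47.9 CPM, against 22.2 and 10.8 CPM. Nearly all loading genes were barely counted: Tap1, Tap2, Psmb8 and Psmb9 had 0 CPM in the members, and Psme1 and Psme2 were lower than in spermatogonia. Macrophages are rich in these transcripts, with a thinned share of cells with an H2-D1 UMI of 70.9% against 25.7% in the members (85.1% and 65.8% unthinned). It was 14.8% in Leydig cells (468 cells, median 6904.5 UMI) and 1.6% in Sertoli-gated cells (49.1% and 2.3% unthinned). The 6 macrophage markers summed to 20.9, 11.3 and 3.297 CPM in members, spermatogonia and late spermatocytes. The 5 lymphocyte markers summed to 19.7, 10.9 and 0.267 CPM, with 24.7, 24.6, 14.9 and 16.6 CPM in libraries 1 to 4 of the members and with Cd3g, Ms4a1 and Nkg7 at 0. Of these 16 UMI in the members 15 were of Cd3e. The part of such cells in the MHC levels was not tested.

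**Figure D3:**
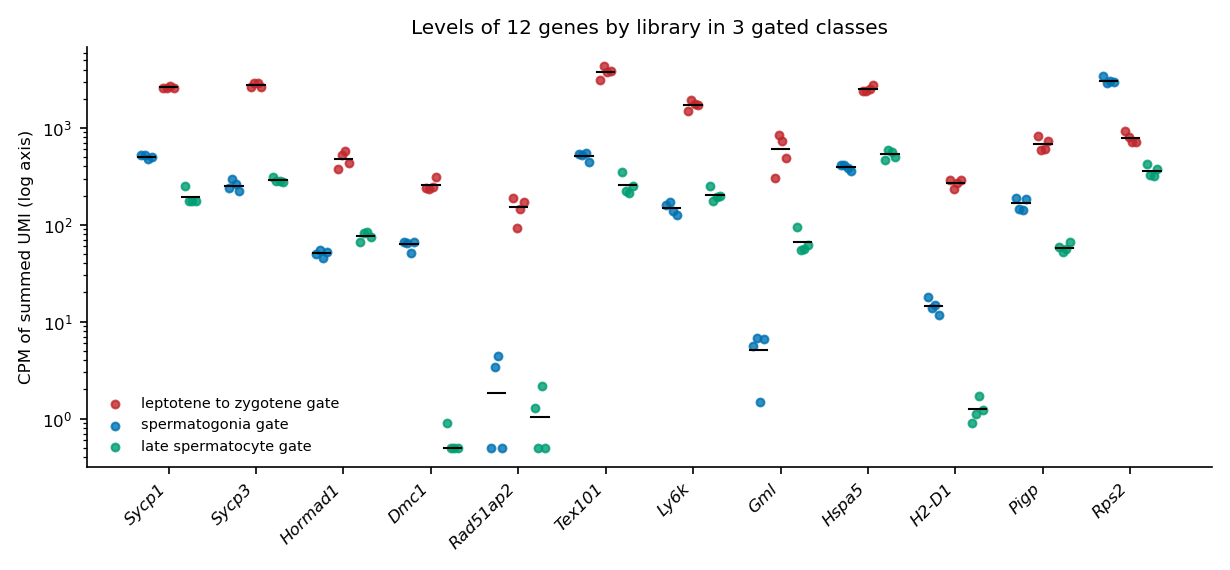
CPM of summed UMI (log axis) of 12 genes in the 3 gated classes. Each point is 1 of 4 libraries and the black line is the pool, and values at or under 0.5 CPM are drawn at 0.5. In all genes but Rps2 the 4 member libraries (red) lie above the libraries of both neighbours, and for Rps2 they lie between them.

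Among X-linked genes compared, 22 of 244 were higher (9.02%) and 62 lower (25.4%) than in spermatogonia, where autosomal genes had 10.7% and 17.0%. Against late spermatocytes 132 of 284 were higher (46.5%) and 20 lower (7.04%), where autosomal genes had 25.6% and 22.4%. Of the 13 X-linked housekeeping genes compared with spermatogonia 6 were lower and 0 higher. Against late spermatocytes 9 reached the minimum of 50 UMI, and all 9 were higher. X-linked genes nearly silent in the late gate reach this minimum mainly through the members. Counts and shares of X-linked genes higher than in the late gate, or than in both, are thus partly set by the filter. Hprt, a purine salvage gene, had 195, 135 and 0.208 CPM, and Rpl36a, a ribosomal protein gene, 142, 436 and 0.921 CPM. The X also held 21 genes higher than in both, of 164 compared (12.8%), against 5.32% of 7314 autosomal genes. Among these were Fmr1, which encodes the translational regulator FMRP, with 317, 160, 209 and 287 CPM in libraries 1 to 4 against 73.3 and 1.90 CPM, and Ssr4, a subunit of the translocon-associated complex, with 391, 258, 362 and 348 CPM against 110 and 1.75 CPM. Maoa, Ap1s2, Pet2, Cmc4 and Slc35a2 led the X-linked genes.

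The members were put in an order to see how levels varied among them. Each cell received the pachytene share of its UMI over the replication list and the pachytene list, a median of 25 UMI per cell, and the cells were divided into a first part of 63 cells (26.8 to 56.3%), a middle part of 62 (57.1 to 77.5%) and a last part of 62 (78.3 to 100%). The cut points are arbitrary, with 36 and 40 cells within 5 percentage points of them. Of 2560 genes compared, 334 were higher (13.0%) and 320 lower (12.5%) in the last than in the first part. The X-linked share of UMI was 2.22%, 1.72% and 1.15% in the 3 parts, and lower in the last than the first in all 4 libraries. Median depth was 3469, 3038 and 4534 UMI, and the mitochondrial share 5.54%, 5.15% and 4.06%. The 30 cells with a low X-linked share numbered 0, 8 and 22 in the 3 parts. The 19 members with the most UMI held 24.8% of all UMI of the members and 16 of them were in the last part, so the last part rests on few cells. No doublet caller was applied, and the part of doublets among these cells was not tested.

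Repair genes went in both directions along this order. Of 10 strand exchange genes 2 were higher and 5 lower in the last part (all genes 13.0% and 12.5%). Dmc1 had 480, 269 and 101 CPM and Brca2, which loads recombinases onto DNA, 350, 265 and 50.6 CPM. Mnd1 had 34.6, 132 and 177 CPM and Psmc3ip 177, 287 and 444 CPM. Of 4 crossover factors 1 was higher, Cntd1, with 56.2, 115 and 301 CPM, and 2 were lower. M1ap, 1 of these, had 363, 119 and 44.97 CPM. For each of these 6 genes all 4 libraries went the same way between the first and last part.

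Axis and synaptonemal genes differed among themselves along the order. Sycp3 had 1837, 3042 and 3240 CPM and Sycp1 2005, 2702 and 2968 CPM and Hormad1 341, 489 and 571 CPM, each higher in the last part in all 4 libraries but short of 2-fold. Of 9 synaptonemal genes 0 were called higher and 2 lower (all genes 13.0% and 12.5%). Syce2 had 2031, 1093 and 568 CPM and Syce1 596, 353 and 298 CPM. Smc1b had 2113, 1384 and 641 CPM and Smc3, the other cohesin core subunit, 977, 573 and 202 CPM. Among the genes of the rule, Stra8 had 1102, 309 and 28.1 CPM, Prdm9 272, 137 and 39.3 CPM and Zcwpw1 834, 481 and 191 CPM, while Meiob had 125, 388 and 385 CPM.

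Cell surface genes followed several courses. Of 5 Ly6 domain genes 2 were higher and 0 lower in the last part (all genes 13.0% and 12.5%). These 2 were the neighbouring genes Gml, with 64.8, 569 and 964 CPM, and Gml2, with 82.1, 392 and 610 CPM. Tex101 was at 3280, 4135 and 3774 CPM. Of 4 cell cycle genes 3 were higher and 1 lower (all genes 13.0% and 12.5%). Cdk1, the kinase of the division to come, had 38.9, 212 and 351 CPM, and Ccne2, a G1 to S cyclin gene, 182, 106 and 53.4 CPM. H2afx had 121, 309 and 599 CPM. Hells, a chromatin remodeller at PRDM9 sites, had 475, 392 and 84.3 CPM, and Tex15, needed for repair of breaks, 653, 339 and 56.2 CPM. H2-K1 had 670, 675 and 326 CPM. Of 6 GPI anchor genes 0 were called higher and 1 lower (all genes 13.0% and 12.5%). The 1 lower was Pigp, with 1167, 749 and 337 CPM, while Pigk had 151, 159 and 247 CPM. Of 44 X-linked genes 1 was higher and 23 lower in the last part (all genes 13.0% and 12.5%). Their median log2 ratio was -1.12 beside 0.08 over all genes.

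**Figure D4:**
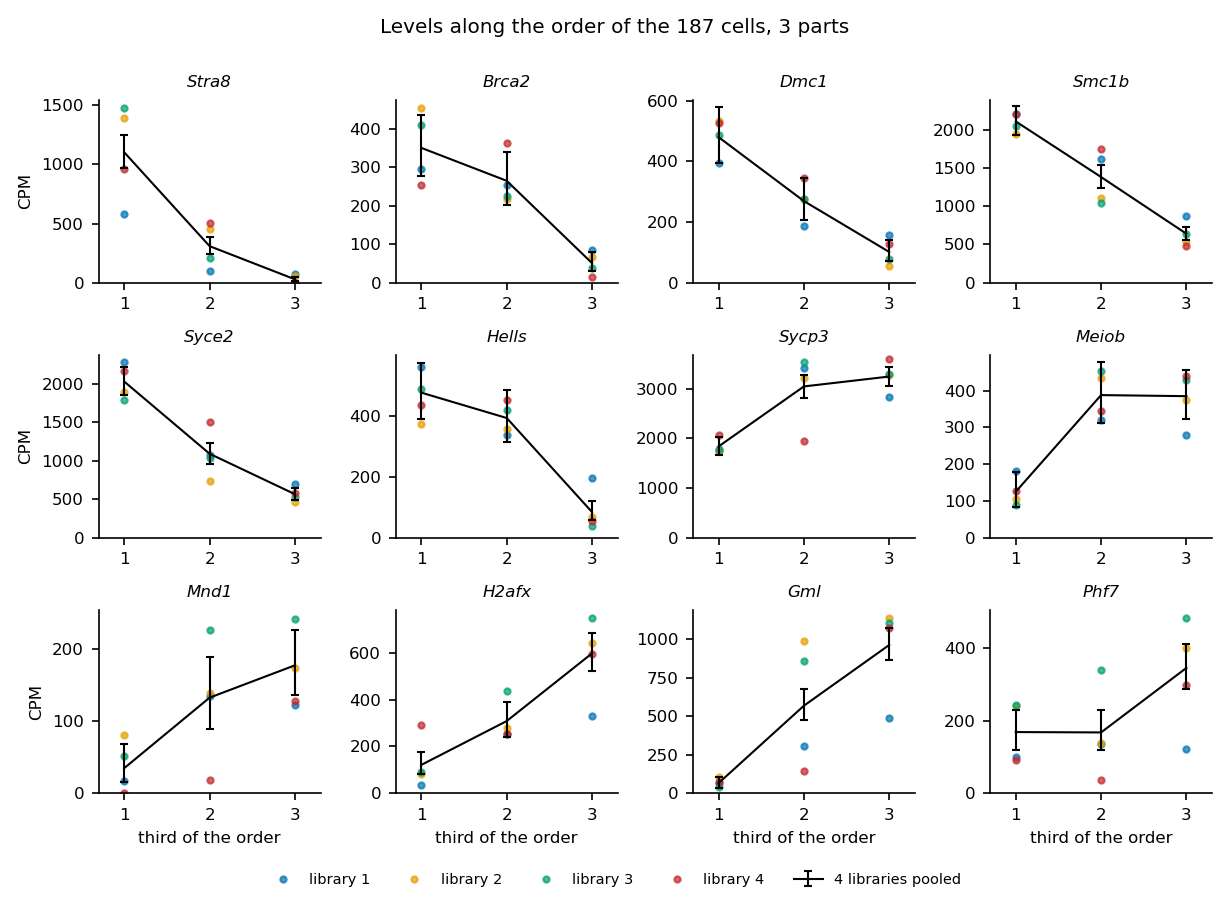
CPM of 12 genes (vertical axes, each from 0) in the first, middle and last part of the order of the 187 members (horizontal axis, 63, 62 and 62 cells). Coloured points are libraries, and black points joined by a line are the pool with exact 95% Poisson intervals. Stra8, Brca2, Dmc1, Smc1b, Syce2 and Hells end low, and Sycp3, Meiob, Mnd1, H2afx, Gml and Phf7 end higher than they began.

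The genes in the study's title were counted at different levels in the 3 classes. Of its 6 related genes 2 were higher than in spermatogonia (all genes 10.7%), Phf7 and Brdt. Against late spermatocytes 2 were higher and 2 lower (all genes 26.2% and 22.0%). Phf7 stood at 63.4 CPM in spermatogonia (15.3, 85.5, 135 and 27.6 in libraries 1 to 4), 245.7 CPM in the members and 605 CPM in late spermatocytes (158, 771, 1178 and 222). The same 2 libraries were high in each class. Along the order of the members Phf7 had 169, 168 and 346 CPM. With references matched in depth its log2 ratio to late spermatocytes went from -1.30 to -0.86, short of a call. A Phf7 UMI was found in 50.3% of members, or 20.9% after thinning, and in 20.8% of thinned Sertoli-gated cells (29.8% unthinned). In macrophages the share was 12.4% after thinning (24.8% unthinned), in Leydig cells 5.26% (19.0%) and in the spermatogonia gate 5.85% (25.8%). The members were thus level with the highest somatic gate and above the other two, and expression and free RNA were not told apart by these shares. Without the 30 cells with a low X-linked share Phf7 was at 167.6 CPM, with 98.0, 229.9, 275.0 and 88.1 in libraries 1 to 4.

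Brdt, the testis-specific bromodomain gene named in the title, had 213, 252, 291 and 254 CPM in libraries 1 to 4 and 255.5 CPM in the pool. Its intervals overlapped across all libraries, and the ratio of highest to lowest was 1.37. The level was above the 55.4 CPM of spermatogonia and near the 180 CPM of late spermatocytes (log2 ratio 0.51). Thinned to 1000 UMI, 18.7% of members and 7.17% of Sertoli-gated cells had a Brdt UMI, from 46.5% and 11.6% unthinned. Rnf8, the ubiquitin ligase that acts on histones at breaks, had 35.6, 52.5 and 10.2 CPM in members, spermatogonia and late spermatocytes, and its call against the last was lost with references matched in depth.

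**Figure D5:**
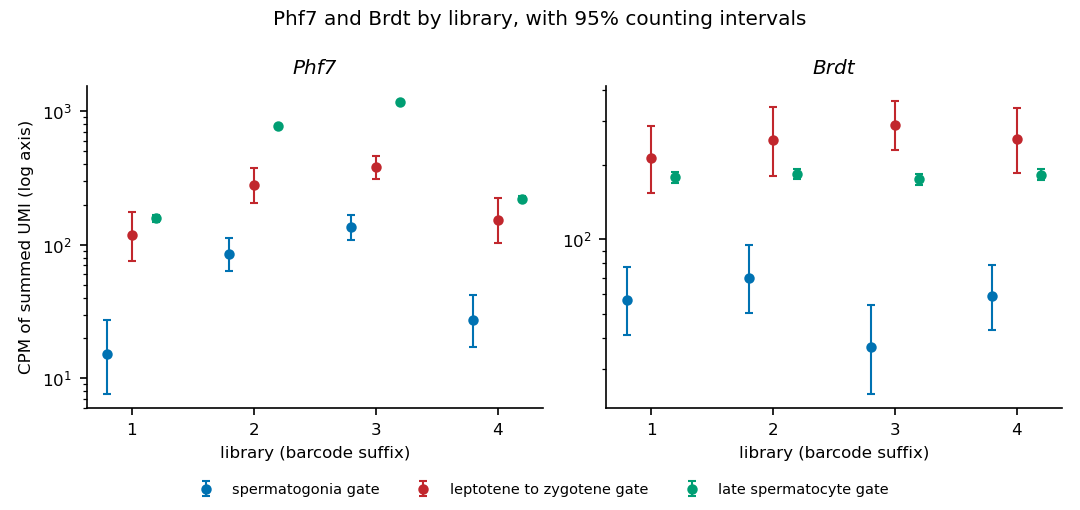
CPM of summed UMI (log axes with separate ranges) of Phf7 and Brdt by library in the spermatogonia, leptotene to zygotene and late spermatocyte gates, with exact 95% Poisson intervals. For Phf7, libraries 2 and 3 lie above libraries 1 and 4 in all 3 classes, and for Brdt the 4 member libraries lie between 213 and 291 CPM.

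Libraries differed little for most other genes. Among 72 genes with at least 200 UMI in each library of members, the ratio of highest to lowest had a median of 1.23 and reached 2.13 for the ubiquitin gene Ubb, which had 2409, 5144, 5110 and 4003 CPM in libraries 1 to 4. Calm2, Rplp0, Rpl13 and Cox4i1 came next. Ubb was at 7482 CPM in the 30 cells with a low X-linked share and 2913 CPM in the others.

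The 15 leading genes of the 158 lower than in both neighbours were rarely counted in the members. Ranking by the lowest ratios favours such genes. These 15, Smad1, Trp53i11, Akt1, Surf2, N4bp3, Faah, Henmt1, Atp9a, Zbtb8a, Rit1, Mgll, Fscn1, Ccdc166, Dpp3 and Abhd11, had 1 to 13 UMI each. Others of the 158 had more, such as Them6 with 21 UMI. Akt1, a kinase of growth signalling, had 1 UMI in the members (1.23 CPM, against 21.5 and 10.3 CPM), with log2 intervals of -9.46 to -1.60 and -8.37 to -0.58. Smad1, a transducer of BMP signals, had 3 UMI, at 3.69 CPM against 33.9 and 44.5 CPM. At this depth such genes can be placed below the neighbours but not given a level.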

How the data were processed

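Single-cell RNA was measured in 4 samples of mouse testicular cells. The authors deposited raw UMI counts per gene and barcode, 28692 genes by 32273 barcodes, made with Cell Ranger 3.0.2 per the file headers. The build mm10 and bcl2fastq 2.19.1.403 are named per the submitters' processing notes. Not given in the sources used here are the annotation release and any equalising of depth between libraries. The 4 barcode suffixes, taken as libraries, held 46961803, 44447735, 48982321 and 50353091 UMI. The planned comparison of the genotypes was not run, because no file ties a suffix to a sample.

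CPM values are the sum of a gene's UMI in a class, per 1e6 UMI of that class. Ratios are log2 ratios of CPM with exact conditional binomial intervals, levels have exact Poisson intervals and shares exact Clopper-Pearson intervals, all at 95%. For ratios, 0 UMI in a class was replaced by a floor of 3 counts. Somatic gates needed at least 5 UMI over the markers of the type from at least 3 of them, and at most 2 UMI over the 5 genes of the rule. This limit may lower the shares of somatic cells with early meiotic transcripts. No doublet caller was used, and an alternative left out the 10% of cells with the most UMI in each class. Python 3.11.15, numpy 2.4.6, scipy 1.17.1, pandas 2.3.3, scikit-learn 1.9.0 and matplotlib 3.10.9 were used, and the ratio step was tested on simulated data. Promoters came from RefSeq, and gene positions from the GENCODE M21 annotation of GRCm38 (the assembly of mm10), which held 28416 of the 28692 genes.

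The members and the gene lists were chosen with earlier results of these data known. The named genes were, per list and comparison, the 2 highest and 2 lowest ratios among members with at least 50 UMI that went the same way in every library, the 15 leading genes in each direction against both neighbours with at least 200 UMI, the 5 most variable between libraries, and always Phf7, Brdt, Rnf8, Tex101, Ly6k, Dmc1, Spo11, Sycp3, Hormad1 and Piwil1. Other genes named, and the lists for the endoplasmic reticulum, GPI anchors, MHC class I and Ly6 domains, were chosen after their values were seen. Zcwpw2, Hei10, Redic1, Terb1, Terb2, Majin and Hist3h3 were not found under these symbols. The values of 2 further genes are not reported here.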

Additional observations from a re-analysis of the deposited data

How the results depend on the processing

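No paired analysis was possible because no column is tied to a sample, so replicate numbers could not be attached to libraries. The share of members among kept cells moved with the rule, to 0.814% at 2 UMI over the 5 genes, 0.314% at 5 UMI, 1.04% among barcodes with at least 1000 genes and 0.302% at up to 5% mitochondrial UMI. The X-linked share was 1.58% at 5 UMI, 1.29% at up to 5% mitochondrial UMI, 1.65% with 1 spermatogonial gene allowed and 2.00% without the 10% of cells with the most UMI. The mitochondrial share was 4.50%, 4.51%, 3.65% and 5.28% at 2 UMI, at 5 UMI, at up to 5% and without those cells. Phf7 was at 209.6, 307.6 and 197.8 CPM at 5 UMI, at up to 5% mitochondrial UMI and without those cells, and at 167.6 CPM without cells of low X-linked share. Genes higher than in both neighbours numbered 261 at up to 5% mitochondrial UMI, 181 at a minimum of 200 UMI and 147 at 3-fold. Genes lower than in spermatogonia numbered 2171 at a minimum of 10 UMI, 455 at 200 UMI, 862 with depth-matched references and 835 at 3-fold, and genes higher numbered 365 at 200 UMI and 309 at 3-fold. Against late spermatocytes, 1731 were higher with depth-matched references and 1692 lower at 3-fold. Fewer genes pass a higher minimum or fold by construction, and fewer reach the minimum in smaller sets of cells, such as the depth-matched references. The cause of the other shifts was not tested. The log2 ratio of the X-linked share between the last and first part of the order, -0.94, was -1.16 when cells were ordered by the first principal component and -1.24 without Taf7l and Ldhc.

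Leaving out 1 library at a time gave 788 to 838 genes higher and 1222 to 1262 lower than in spermatogonia, 2923 to 3017 higher and 2437 to 2620 lower than in late spermatocytes, and 359 to 407 higher than in both. It gave 0.581 to 0.652% members, an X-linked share of 1.55 to 1.71%, a mitochondrial share of 4.68 to 4.84% and 179.5 to 287.6 CPM of Phf7. Along the order it gave 248 to 329 genes higher, 217 to 262 lower and a log2 ratio of the X-linked share of -0.99 to -0.74. Single genes were followed for the genes always named, without those of the rule, and the leading genes higher than in both. Of their values 634 kept their call or lack of a call, 5 lost the call and 1 gained it. Those 6 concern Phf7 and Rnf8. No called gene changed direction, and direction was not checked for genes without a call. The leading genes were chosen for large ratios. H2afx, whose call ended without the cells of low X-linked share, was not among the genes followed. The depth-matched references, the fold of 3, the removal of cells with a low X-linked share, the order without Taf7l and Ldhc and its leave-one-out values were chosen after seeing the data. Depth limits the text most for genes with few UMI in the 187 members.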

Other observations

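Some genes that were higher in these cells than in the neighbours entered no list comparison. Prss50, which encodes a testis serine protease, had 938 of its 2778 UMI in the members, or 33.8%, and 27.6% in the spermatogonia gate. Ccnb3 had 34 of 66 UMI in the members. Iqcb1, a ciliary gene among the leading genes, had 594, 639, 541 and 629 CPM in libraries 1 to 4, against 83.5 and 34.4 CPM in spermatogonia and late spermatocytes. The members held 12.7% of its UMI and the late gate 30.5%. Inca1, a gene for an inhibitor of CDK and cyclin A1 complexes, had 401, 320, 306 and 375 CPM, against 40.1 and 28.1 CPM. For Inca1 the members held 9.52% of the UMI and the late gate 31.8%. The ribosomal protein gene Rps27 had 510, 160, 354 and 199 CPM in libraries 1 to 4, and with a ratio of highest to lowest of 3.19 it stood next to Phf7 in spread between libraries.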
